A study of Mus musculus with 6 samples.

Results

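The genes described here are 9 members of a signalling axis in taste cells of the mouse tongue. They comprise 5 genes of the CCN family (Cyr61, Ctgf, Nov, Wisp1 and Wisp2), 2 further target genes (Amotl2 and Ankrd1) and the genes of the coactivators YAP and TAZ (Yap1 and Wwtr1). They were chosen by name out of 23361 genes in the authors' table, with their values at 2 and 6 months of age, and the low value of Cyr61 at 6 months, already known. The difference between the ages is therefore given as a description and without a test. All 9 were found in the table, and 6 of them averaged 1 FPKM or more over the 2 ages and are called expressed.

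The RNA came from taste cells of the circumvallate and foliate (CV/Fol) papillae, where taste buds cluster on the rear tongue, of C57BL/6 mice. There were 3 libraries from mice aged 2 months and 3 from mice aged 6 months, and each library held cells pooled from several mice, with more mice per pool at the younger age. Both groups were unmodified mice, and in both the cells were freed by enzymes injected beneath the epithelium of the removed tongue. The labels give these ages, although the series' design text names 3 months in place of 2 at one point. The authors deposited 1 FPKM value per gene and age (fragments mapped to a gene, divided by transcript length and by the mapped reads), so no spread between pools can be given for any gene and no difference below can be set against it. In such bulk RNA, fewer cells that express a gene and less RNA in each of them cannot be told apart.

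YAP and TAZ have no DNA-binding domain of their own and act on genes through the TEAD transcription factors. The kinases of the Hippo pathway, MST and LATS, phosphorylate YAP and TAZ and keep them out of the nucleus, while stiff matrix, cell spreading and low cell density favour their entry. Cyr61, Ctgf, Ankrd1 and Amotl2 are widely used readouts of this activity, and Amotl2 also encodes an angiomotin that binds YAP and holds it back. CCN proteins are secreted, cysteine-rich proteins of the extracellular matrix that bind integrins and proteoglycans, and in squamous epithelium YAP is best known from basal cells, which divide to renew the tissue. Cyr61 and Ctgf also belong to the genes that are transcribed within minutes of serum or stress.

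The core of the TEAD motif, CATTCC or GGAATG on the other strand, was searched in RefSeq promoter sequences of build GRCm38.p6, since this is the element through which YAP and TAZ reach their targets. The window ran from 250 bases before to 50 after a start site. It was available for 5 of the 9 members, namely Cyr61, Amotl2, Ankrd1, Yap1 and Wwtr1; Ctgf, Nov, Wisp1 and Wisp2 had no entry. The motif was present in all 5, and in 14.7% of the 32851 promoters of the table. The upstream sequence of Cyr61 is shown whole because, of the 6 expressed members, Cyr61 had the largest difference between the ages. It lies at chr3:145649986-145650235 on the minus strand, overlaps no exon of the GENCODE annotation and is written 5′ to 3′ with capitals for the TEAD motif and, nearer the start, a TATAAA element.

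Cyr61: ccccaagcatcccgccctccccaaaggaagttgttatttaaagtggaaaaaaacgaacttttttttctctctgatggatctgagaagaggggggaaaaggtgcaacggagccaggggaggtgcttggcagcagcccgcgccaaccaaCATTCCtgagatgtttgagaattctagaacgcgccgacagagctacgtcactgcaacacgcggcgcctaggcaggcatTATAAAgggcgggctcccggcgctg

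In Cyr61 the TEAD motif began at position -103 and TATAAA at position -25, counted from the start site. Of the 5 members only Cyr61 had TATAAA, which 13.6% of all promoters held. The AP-1 motif TGANTCA, in 7.81% of all promoters, the cAMP response element TGACGTCA, in 1.79%, and the CArG box bound by serum response factor, in 1.63%, were in none of the 5 windows. All motifs were searched on both strands, and a missing match concerns these letters in this window alone. The matches of the other members are given as 30 bases around the motif, in capitals, each 5′ to 3′ in the direction of the gene.

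Amotl2: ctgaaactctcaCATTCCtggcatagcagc
Ankrd1, first match: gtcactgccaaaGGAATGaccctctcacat
Ankrd1, second match: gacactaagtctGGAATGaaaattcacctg
Yap1: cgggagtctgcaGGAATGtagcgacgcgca
Wwtr1: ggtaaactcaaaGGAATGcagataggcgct

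The Amotl2 stretch lies at chr9:102717727-102717756 on the plus strand, and its motif begins at position -65. The Ankrd1 stretches lie at chr19:36120037-36120066 and chr19:36119950-36119979 on the minus strand, with motifs at positions -210 and -123. The stretches of Amotl2 and Ankrd1 overlap exons of the GENCODE annotation, although they lie upstream of the RefSeq start used here. For Amotl2 this start, at 102717804, is an internal one, since the span of the gene begins at 102717091. The Yap1 start used, at 8004596 on the minus strand, also lies inside the span of its gene, which reaches 8004638. The Yap1 stretch, at chr9:8004720-8004749, and the Wwtr1 stretch, at chr3:57576029-57576058, are both on the minus strand and overlap no annotated exon. Wwtr1 has a second RefSeq start, from which the same motif is at position -170 in place of -136. Cyr61 and Amotl2 carried the motif in the same orientation, and the other 3 members in the opposite one.

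**Figure D1:**
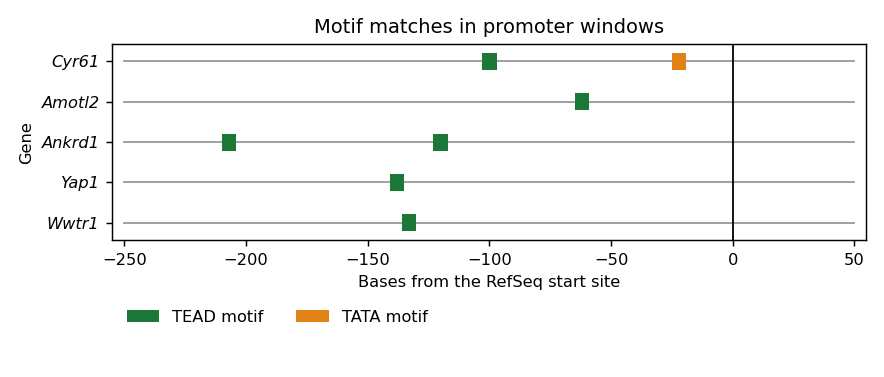
Positions of motif matches in the promoter windows of 5 members, in bases from the RefSeq start site (vertical line at 0), with green boxes for CATTCC on either strand and the orange box for TATAAA. All 5 windows hold the TEAD motif upstream of the start used, which for Amotl2 and Yap1 lies inside the span of the gene. Ankrd1 holds it in 2 places, and the TATA motif is in the Cyr61 window.

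The members' genes lie on 6 chromosomes of GRCm38. Cyr61 (now named Ccn1) spans 145646971 to 145649985 on chromosome 3, on the minus strand, and its longest coding transcript has 5 exons. Ctgf (Ccn2) spans 24595442 to 24598683 on chromosome 10, Nov (Ccn3) 54745910 to 54753762 on chromosome 15 and Wisp1 (Ccn4) 66891369 to 66923201 on the same chromosome. Wisp2 (Ccn5) spans 163820752 to 163833146 on chromosome 2. Amotl2 spans 102717091 to 102733418 and Yap1 7931999 to 8004638 on chromosome 9, Wwtr1 57455644 to 57575910 on chromosome 3, and Ankrd1 36111965 to 36119844 on chromosome 19.

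Among the CCN genes, levels differed by several orders of magnitude. FPKM is scaled to transcript length, so that levels of different genes can be set side by side. Nov, whose protein is best known as an inhibitor of growth in many cell types, was the most abundant, with 47.0 FPKM at 2 and 46.0 FPKM at 6 months. Ctgf, encoding connective tissue growth factor, a promoter of matrix production, had 35.6 FPKM at 2 and 28.7 FPKM at 6 months. Cyr61, an angiogenic and pro-adhesive member, had 4.85 FPKM at 2 and 1.94 FPKM at 6 months. The mean level of Nov exceeded that of 84.6% of the 12652 expressed genes, that of Ctgf 77.6% and that of Cyr61 18.6%.

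Nov and Ctgf together made up nearly all CCN transcripts. Of the summed FPKM of the 6 CCN genes, which was 87.7 at 2 months and 77.0 at 6 months, Nov held 53.5% at 2 months and 59.8% at 6 months. The share of Ctgf was 40.6% and 37.2%, and that of Cyr61 was 5.53% and 2.52%. Ctgf was 7.35 times as abundant as Cyr61 at 2 months and 14.8 times at 6 months. The 2 YAP targets of the family were therefore further apart at the older age, while Nov was 1.32 and 1.60 times as abundant as Ctgf.

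The remaining CCN genes were at or close to the limit of detection. Wisp1, a target of Wnt signalling in other tissues, had 0.0119 FPKM at 2 months and was listed at 0 at 6 months. Wisp2, whose protein lacks the C-terminal domain of the other members, had 0.00832 FPKM at 2 and 0.0105 FPKM at 6 months. Wisp3, the sixth gene of the family and not one of the 9, had 0.257 and 0.355 FPKM. No change with age is read from any of these 3 genes.

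What such values amount to in reads was estimated from the table itself. Among coding genes with a single annotated transcript and under 0.1 FPKM, FPKM times transcript length clustered at a lowest common value of 0.0205 FPKM × kb at 2 months and 0.0165 at 6 months, which was taken as about 1 fragment in 1 of the 3 libraries. On this scale, and with the length of the longest coding transcript, Wisp1 corresponded to about 3 fragments at 2 months, Wisp2 to about 0.7 and 1.1, and Ankrd1 to about 2.1 at 2 months and 1.1 at 6 months. Cyr61 corresponded to about 477 and 237 fragments over the 3 libraries of an age. These figures are approximate, since the libraries of an age differ in depth and the authors' transcript models may differ in length.

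Amotl2 and Ankrd1, the YAP target genes outside the CCN family, differed in whether they were expressed at all. Amotl2 had 10.8 FPKM at 2 and 11.1 FPKM at 6 months, close to the median level of expressed genes, which was 11.8 and 11.7 FPKM. Ankrd1, which encodes a cardiac and skeletal muscle ankyrin repeat protein besides being a common YAP reporter, had 0.0208 and 0.00909 FPKM. No change with age is read from Ankrd1 at these levels.

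The coactivators themselves were well expressed. Yap1 had 56.3 FPKM at 2 and 52.4 FPKM at 6 months, the highest values of the 9 genes at both ages, and its mean exceeded 87.1% of expressed genes. Wwtr1, the gene of TAZ, had 14.4 FPKM at 2 and 11.6 FPKM at 6 months. Yap1 was 3.91 times as abundant as Wwtr1 at 2 months and 4.53 times at 6 months. Ordered by mean level, the 9 genes ran Yap1, Nov, Ctgf, Wwtr1, Amotl2, Cyr61, Ankrd1, Wisp2 and Wisp1, and without replicate values no neighbours in this order can be said to differ.

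**Figure D2:**
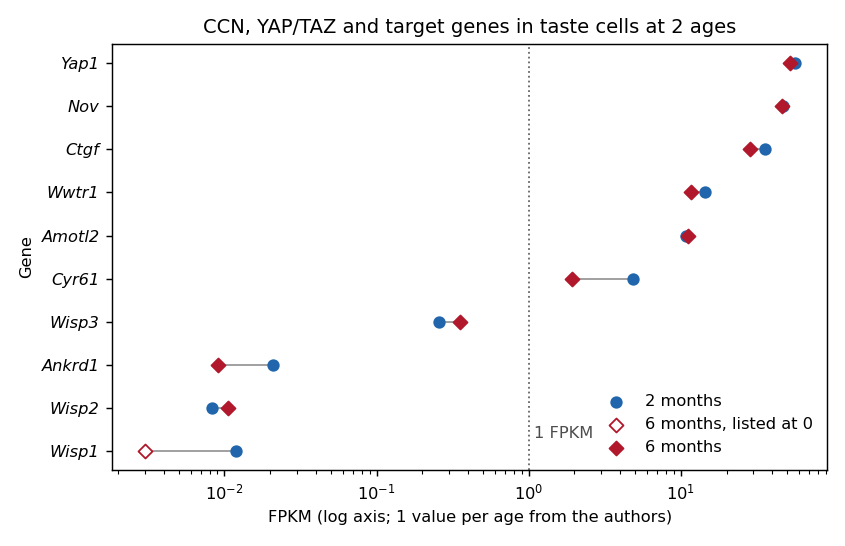
FPKM of the 9 members and Wisp3 on a log axis, with blue circles for 2 months and red diamonds for 6 months, each the authors' single value for an age, while the open diamond marks a value listed at 0 and drawn at the left edge, and the dotted line marks 1 FPKM. The 6 expressed members lie right of the line, and of these Cyr61 has the widest gap, from 4.85 to 1.94 FPKM.

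Between 2 and 6 months, Cyr61 stood out from the other expressed members in the size of its difference. Its FPKM was 2.5-fold lower at 6 months. On the log2(FPKM + 1) scale, which understates differences of weakly expressed genes, it was lower by 0.99, that is a difference of -0.99. The next largest differences were those of Ctgf, at -0.30, and Wwtr1, at -0.29, with values at 6 months 0.805 and 0.803 times those at 2 months. Yap1 had a difference of -0.10, Nov of -0.03 and Amotl2 of 0.03. The 3 members under 1 FPKM had differences between -0.02 and 0.00 on this scale, which carries no information at such levels.

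Of the 6 expressed members, 1 was lower by at least 1.5-fold on that scale and 0 were higher by as much. Over all 12652 expressed genes, 1.72% were lower and 1.05% were higher by at least 1.5-fold, and 1.34% were lower when genes listed at 0 in either age were left out. At 2-fold, 1.04% of expressed genes were lower and Cyr61 just missed the limit on this scale. With a pseudocount of 0.1 in place of 1, Cyr61 had a difference of -1.28. Since the members were chosen with this contrast known, nothing is read from these shares.

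The median difference of the 6 expressed members was -0.20, against -0.01 over all expressed genes, whose quartiles were -0.10 and 0.08. Without Cyr61, which a minimum mean of 5 FPKM leaves out, the members' median was -0.10. With the larger of the 2 scalings of the 6 month values it was -0.11 for the 6 members, against 0.07 over all expressed genes. Of the 6, 5 had a lower value at 6 months, but that of Nov was so small that rescaling the 6 month values turned it, leaving 4 lower and 2 higher. A difference at least as low as that of Ctgf was found in 616 expressed genes and one as low as that of Wwtr1 in 650, against 134 for Cyr61. Ctgf and Wwtr1 thus lay at about the 5th percentile of all expressed genes and Cyr61 at about the 1st.

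**Figure D3:**
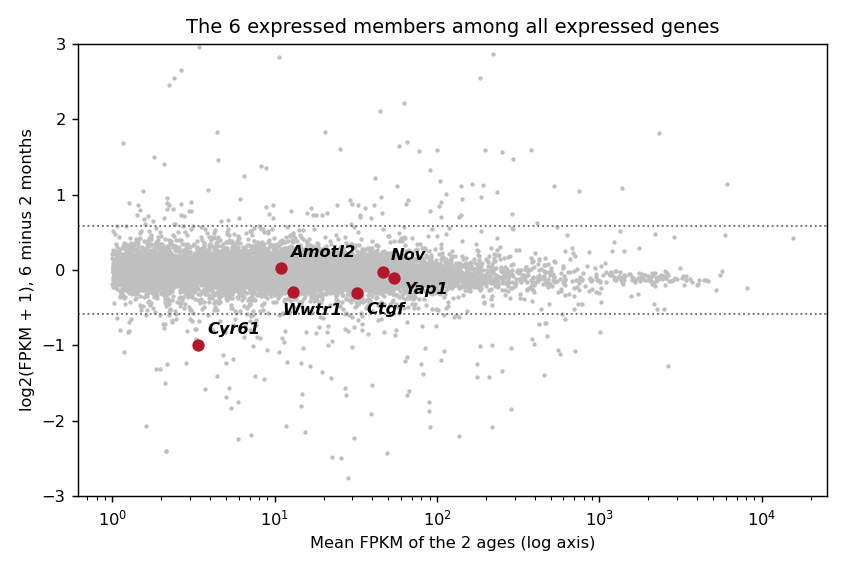
Difference in log2(FPKM + 1), 6 minus 2 months, against mean FPKM on a log axis for expressed genes (grey) and the 6 expressed members (red), with dotted lines at 1.5-fold; genes beyond 3 on the log2 scale (88) are not drawn. Cyr61 lies below the lower line at -0.99, and the other 5 members lie between the dotted lines, from -0.30 to 0.03.

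Among other target genes of YAP and TAZ, none was lower or higher to the extent of Cyr61. A list of 18 genes from signatures in common use, with the members left out, had 16 expressed genes, of which 0 were lower and 0 were higher by at least 1.5-fold. Over all expressed genes only 1.72% were lower and 1.05% higher by as much. Nothing is therefore read from this count of 0, or from the counts of 0 in the lists below. A lower value at 6 months was found for 5 and a higher value for 11 of the 16, with a median difference of 0.07. The most abundant were F3, the gene of tissue factor, which starts blood clotting, with 81.8 FPKM at 2 and 97.4 FPKM at 6 months, and Igfbp3, a binding protein of insulin-like growth factors, with 29.6 and 28.9 FPKM. The ends of the list, named after their values had been seen, were Gadd45a, a stress-response gene, at -0.34 and Axl, a receptor tyrosine kinase, at 0.42. That these genes and the members differ was not tested.

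The factors through which YAP and TAZ act were expressed at both ages. The 4 TEAD genes summed to 54.2 FPKM at 2 and 51.5 FPKM at 6 months, and Tead3 made up 66.6% and 66.2% of this sum, with 36.1 and 34.1 FPKM. Tead1 had 6.14 and 6.36 FPKM and Tead4 6.51 and 5.87 FPKM, so that their order was not the same at the 2 ages. The differences of the 4 genes ran from -0.13 to 0.04. Among the VGLL cofactors, which compete with YAP for TEAD factors, Vgll4 had 28.5 and 28.9 FPKM and Vgll3 2.00 and 1.59 FPKM. Vgll2 was listed at 0 in both ages, and Vgll1 at 0 and 0.0869 FPKM.

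The upstream Hippo genes were nearly all expressed, and their values at the 2 ages were close. All 18 kinases and scaffolds listed were expressed, with differences from -0.18 to 0.23 and a median of 0.03. The most abundant were Map4k4, a kinase that can activate LATS, with 47.9 and 45.8 FPKM, and Mob1a, the adaptor of the LATS kinases, with 35.3 and 41.6 FPKM. Among 9 LIM and junction regulators, 7 were expressed, led by Cdh1 (E-cadherin) with 163 and 166 FPKM and Ctnna1 (alpha-catenin), which had 152 FPKM in each age. The atypical cadherins Fat4 and Dchs1 were under 0.1 FPKM. Over all 35 Hippo genes, TEAD and VGLL included, 31 were expressed and 0 were lower or higher by at least 1.5-fold. That is near the shares over all expressed genes, 1.72% lower and 1.05% higher.

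The promoter motif was also looked up in these lists. CATTCC was in the promoters of 12 of the 24 expressed Hippo genes with an entry, and in 4 of 11 other target genes, against 14.3% of the 9874 expressed genes with an entry. The 4 target genes were Axl, Crim1, Lats2 and Ptpn14, and Lats2 and Ptpn14 are in both lists. Over all expressed genes, the median difference was -0.02 with the motif and -0.01 without it. For TGANTCA these medians were -0.04 and -0.01.

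Receptors for CCN proteins were present. Of 11 listed, 10 were expressed, and the most abundant were Sdc4, the proteoglycan syndecan-4, with 107 FPKM at 2 and 92.6 FPKM at 6 months, and Itgb1, the beta1 integrin, with 46.4 and 44.0 FPKM. The beta3 integrin gene Itgb3, part of a well known CCN receptor, had 0.211 and 0.156 FPKM. None of the 10 was lower or higher by at least 1.5-fold, and their median difference was 0.05.

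Cyr61 and Ctgf respond to serum response factor (SRF) and belong to the immediate early genes, so these lists were set beside them. Of 11 expressed genes in the SRF list, 1 was lower by at least 1.5-fold, Myl9, the gene of a myosin light chain, with 1.79 FPKM at 2 and 0.732 FPKM at 6 months. Srf itself had 18.2 and 16.6 FPKM, and the most abundant targets, the tropomyosin genes Tpm1 and Tpm2, had differences of 0.00 and -0.04. Of 18 expressed immediate early genes, 8 were lower by at least 1.5-fold (Fos, Fosb, Jun, Egr1, Atf3, Zfp36, Dusp1 and Ier3), and the median difference of the list was -0.53. Over all expressed genes 1.72% were lower by as much. A lower value at 6 months was found for 17 of the 18 and a higher value for 1. The list was chosen with earlier results of these data known. The differences of all 18 ran from -1.87 for Fos to 0.04 for Myc, named after its value had been seen. All 6 expressed members lay in this range, but its upper end rests on 1 gene, so nothing is read from that. Ctgf at -0.30 also lay within the range of the other YAP/TAZ target genes, from -0.34 to 0.42. The most abundant immediate early genes, the transcription factor genes Klf4 and Junb, did not reach 1.5-fold, with differences of -0.22 and -0.54. Whether Cyr61 differs with these genes rather than with the YAP targets was not tested.

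**Figure D4:**
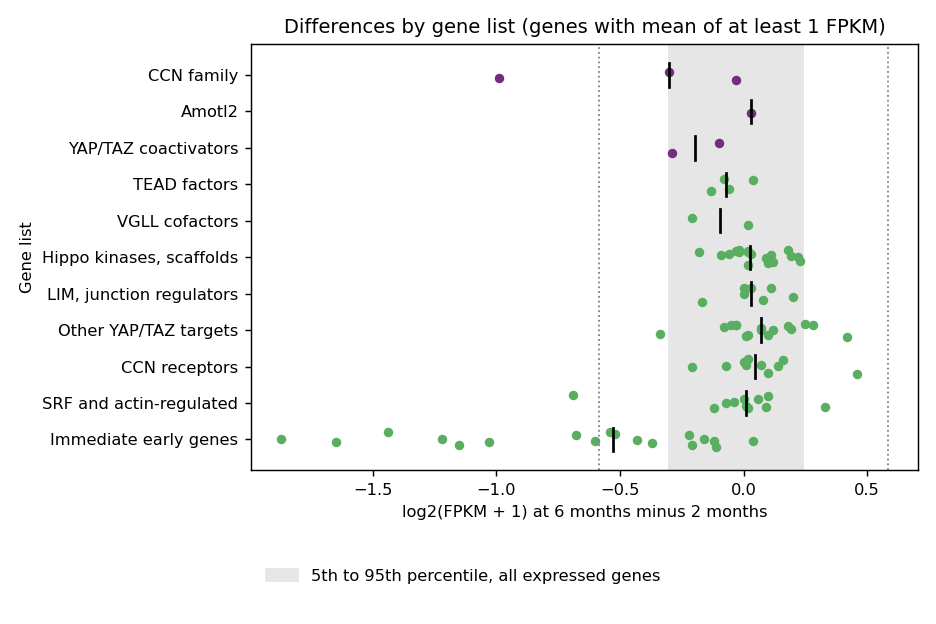
Differences in log2(FPKM + 1), 6 minus 2 months, for expressed genes, by list; each point is a gene, black bars are medians, the grey band is the 5th to 95th percentile of all expressed genes and dotted lines mark 1.5-fold. Points of the Hippo, TEAD, VGLL and other target lists stay within the dotted lines. Cyr61 at -0.99, Myl9 of the SRF list at -0.69 and 8 immediate early genes lie below the lower one.

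The identity of the cells was checked with marker lists. All 10 taste cell markers were expressed, from 5.48 to 234 FPKM, led by Krt8 with 234 and 197 FPKM and the gustducin gene Gnat3 with 84.7 and 79.9 FPKM, and 0 differed by at least 1.5-fold. Basal keratinocyte markers were far higher, summing to 4646 FPKM at 2 and 4619 FPKM at 6 months, mostly Krt5 and Krt14, with differences from -0.17 to 0.25. The members' values cannot be assigned to taste cells or to basal cells from these data.

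Most markers of connective tissue and vessels, where CCN genes are strongly expressed in other organs, were near 0. Of 7 fibroblast markers, the collagen genes Col1a1, Col1a2 and Col3a1 and the gene Lum were under 0.2 FPKM in both ages, while Dcn had 42 and 27.3 FPKM and was lower by at least 1.5-fold, and Thy1 had 1.62 and 2.28 FPKM. The part of Dcn-expressing cells in the members' values was not tested. Of 7 endothelial markers 5 were under 0.2 FPKM, and the list summed to 2.03 FPKM at 2 and 2.02 FPKM at 6 months, mostly from Tek with 1.57 and 1.55 FPKM and Pecam1 with 0.331 and 0.295 FPKM. Of 6 smooth muscle and pericyte markers 4 were under 0.2 FPKM, and the others, Cspg4 and Des, had 0.781 and 1.41 FPKM and 0.337 and 0.532 FPKM. Leukocyte markers summed to 16.6 and 14.1 FPKM, led by Cd68 with 10 and 7.15 FPKM and Itgam with 4.32 and 4.38 FPKM.

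Some genes of other marker lists were past 1.5-fold, where 1.05% of all expressed genes were higher and 1.72% lower by as much. Skeletal muscle markers summed to 13.0 FPKM at 2 and 26.0 FPKM at 6 months, and 5 of the 6 expressed were higher by at least 1.5-fold, namely Tnnc2, Mb, Acta1, Tnnt3 and Ckm, with differences from 0.65 to 1.07. Mylpf, the most abundant of the list, had a difference of 0.39, and the muscle gene Ankrd1 was at or under 0.0208 FPKM. Of 5 expressed markers of differentiated keratinocytes, 4 were lower by at least 1.5-fold. Krt10, Lor and Ivl had differences of -1.08, -0.82 and -0.59, while Krt1 at -0.57 did not reach the limit. Krt4, also counted among the 4, had 7334 FPKM at 2 months and was listed at 0 at 6 months. No change with age is read from this 0. Of 4 expressed gland markers, 1 was lower by at least 1.5-fold, the lipase gene Lipf, at -2.43. All 4 had a lower value at 6 months, with a median difference of -0.38, and the mucin gene Muc5b, at -0.14, had the smallest difference. The part of muscle, cornified epithelium and gland in the difference of Cyr61 was not tested.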

How the data were processed

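Taste cells were sequenced from 3 libraries at 2 months and 3 at 6 months. The submitters' processing notes and the methods name TopHat2 2.0.7 for mapping to GRCm38/mm10 with a RefSeq annotation, Cufflinks 2.1.1 and Cuffdiff. The authors deposited 1 FPKM value per gene and age, which stands for the 3 libraries. The deposited table also has a p-value per gene from the authors' own comparison, which was not used. The column letters B and S were matched to the letters in the sample titles. Depth per library is not given in the sources used here.

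Here, differences were computed as log2(FPKM + 1) at 6 minus 2 months, genes averaging 1 FPKM or more counted as expressed, and a gene was called lower or higher from 1.5-fold on that scale. With 1 value per age no test, SD or replicate check was possible. The members and lists were chosen with earlier results of these data known, and so was the 1.5-fold limit, when it was known that Cyr61 just missed 2-fold. Named genes were the members, Wisp3 and, from each list, genes past 1.5-fold and the 2 most abundant; others are marked as chosen after their values were seen, or stand for markers, both ends of a level or Hippo genes near 0. All 9 members were matched to RefSeq by symbol or older symbol. A comparison of CCN protein sequences had been planned and was not made here. Counting of genes and the 1-fragment value were tested on simulated data. Alternatives were a pseudocount of 0.1, no filter or a mean of at least 5 FPKM, a 2-fold limit, scaling of the 6 month values by 1.03 (same upper quartile) or 1.07 (same total without 771 small RNA genes), and, chosen after seeing the data, leaving out genes listed at 0. The 1-fragment estimate, the motif shares of other lists and the 30-base stretches were also chosen after seeing the data. Python 3.11.15, numpy 2.4.6, pandas 2.3.3 and matplotlib 3.10.9 were used.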

Additional observations from a re-analysis of the deposited data

How the results depend on the processing

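No paired analysis was possible because each age has a single pooled value, and no library could be left out in turn. The count of members lower by at least 1.5-fold was 1, Cyr61, and became 0 at a mean of at least 5 FPKM, where Cyr61 with its mean of 3.39 FPKM is no longer counted, and 0 at the 2-fold limit. The median difference of the members was -0.20 and became -0.03 with no filter, where the 3 genes near 0 FPKM enter, -0.10 at a mean of at least 5 FPKM, where Cyr61 drops out, and -0.11 with the 6 month values scaled to the same total without small RNA genes. The count of all expressed genes past the limit was 350 and became 202 at 2-fold. The counts of 0 for other target genes and for Hippo genes stayed at 0 under every alternative run. Nothing is read from this, since few of all expressed genes were past the limit. Scaling moved the median of all expressed genes from -0.01 to 0.03 and 0.07, and the difference of Nov from -0.03 to 0.01 and 0.07. The motif count of 5 members held with 250 upstream bases alone.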

Other observations

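The table lists 79 expressed genes at exactly 0 in 1 of the 2 ages, 48 at 6 months and 31 at 2 months, and 61 of them had 10 FPKM or more in the other age. Krt4, a keratin of non-cornified oral epithelium, had 7334 FPKM at 2 months and was listed at 0 at 6 months, and its partner Krt13 was listed at 0 in both. Such genes add to the count of lower genes against which Cyr61 was set. Krt6a, a keratin of stressed epithelium, was listed at 0 at 2 months and had 3391 FPKM at 6 months. Of the 79, 76 had symbols of small RNA genes.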
